A study of Homo sapiens with 26 samples.

Results

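Footprint and mRNA readouts of LOCL-TL at the OMM (outer mitochondrial membrane) were compared gene by gene. The first counts ribosome footprints on ribosomes biotinylated by LOV-BirA at the OMM, and the second counts reads of whole mRNAs pulled down with such ribosomes. For each gene, the log2 ratio of pulldown to total input was formed in each lysate and averaged over the 2 lysates of each readout. The mean mRNA enrichment was then subtracted from the mean footprint enrichment. A gene entered if both total inputs of each readout held at least 64 footprints in its coding sequence and at least 64 reads. Of 57769 genes listed in both kinds of table, 6714 met this rule, and 6713 had a value in all 4 lysates. ZFP37 had no footprint in the first pulldown and enters the test only. Of the 26 libraries of the series, 8 were used.

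The cells are HEK293T, a human embryonic kidney line, with an Avi tag, the peptide that BirA biotinylates, on ribosomal protein RPL29. In all 8 libraries LOV-BirA was anchored at the OMM by the transmembrane domain of OMP25 and expressed from the EF1α promoter, and cells received cycloheximide (CHX), biotin and 10 min of blue light. The labels call the footprint libraries mitochondrially located LOV-BirA and the mRNA libraries wild type with neg control gRNA. Each readout has replicates 1 and 2, each with a total input and a pulldown from 1 lysate. CHX in the mRNA libraries comes from the general protocol. Because footprints and mRNA come from different lines, lysates and sequencing runs, a difference between readouts and a difference between these experiments cannot be told apart.

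Most mitochondrial proteins are encoded in the nucleus, made on cytosolic ribosomes and imported, and part of them are made by ribosomes sitting at the OMM. Footprints are nuclease-protected mRNA fragments inside single ribosomes, so their enrichment weighs each ribosome on a transcript separately. In the intact mRNA readout, by contrast, a transcript can be retrieved through any labelled ribosome on it and then counts along its whole length. Arithmetically, the difference analysed here equals the log2 change, from total input to pulldown, in footprints per mRNA read.

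Coding sequences held between 1025114 (pulldown, replicate 1) and 5455806 (total input, replicate 2) estimated footprint counts per library, and the mRNA libraries between 38347615 and 55605306 read pairs on genes. The footprint readout was therefore the shallower and noisier: across genes its 2 lysates differed with an SD of 0.40 (log2) against 0.14 for mRNA. VIM, a filament gene these cells express, stood at 489 and 475 RPM (reads per library scaled to a common depth) in the mRNA total inputs, while HBB was at 0 in all 4 total inputs. RPL29, the tagged gene, had footprint enrichments of 0.37 and 0.20 and mRNA enrichments of 0.56 and 0.60. Its fitted difference of −0.32 had an edgeR adjusted p of 0.0247, and of 0.170 once each lysate was centred. The 13 protein genes of the mitochondrial genome are listed at 0 in the mRNA tables and were not compared. SYNJ2BP, the gene of the anchor's donor protein, and COX6A1 share footprint entries with overlapping genes and were not compared either.

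Both readouts ranked genes alike, and the mRNA readout gave the higher enrichment for more genes than the reverse. Across 6713 genes, Pearson's r of mean footprint and mean mRNA enrichment was 0.77 and Spearman's rho 0.72. This is a description, since genes share the libraries. For comparison, the 2 footprint lysates gave r = 0.86 and the 2 mRNA lysates r = 0.99. The difference had a median of −0.17 and an SD of 0.49. Enrichment above 1 in both lysates was reached by 331 genes with footprints and by 532 with mRNA, of which 249 were shared.

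In the edgeR quasi-likelihood test of the difference (8 libraries, two-sided, Benjamini-Hochberg over 6714 genes), footprint enrichment was higher for 791 genes, 11.8%, and mRNA enrichment for 1959 genes, 29.2%, at an adjusted p below 0.05. After each lysate was centred at its own median, which removes the overall shift, the split was 1126 genes (16.8%) against 1384 (20.6%). A simpler criterion asks that every footprint lysate lie on the same side of every mRNA lysate, 4 pairings in all. It placed 1490 genes (22.2%) on the footprint side and 3261 (48.6%) on the mRNA side. Of the called genes, 763 and 1949 also met it in the same direction. The number of calls rests on pairing each pulldown with its own total input: without that term for lysates, 44 and 46 genes passed.

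**Figure D1:**
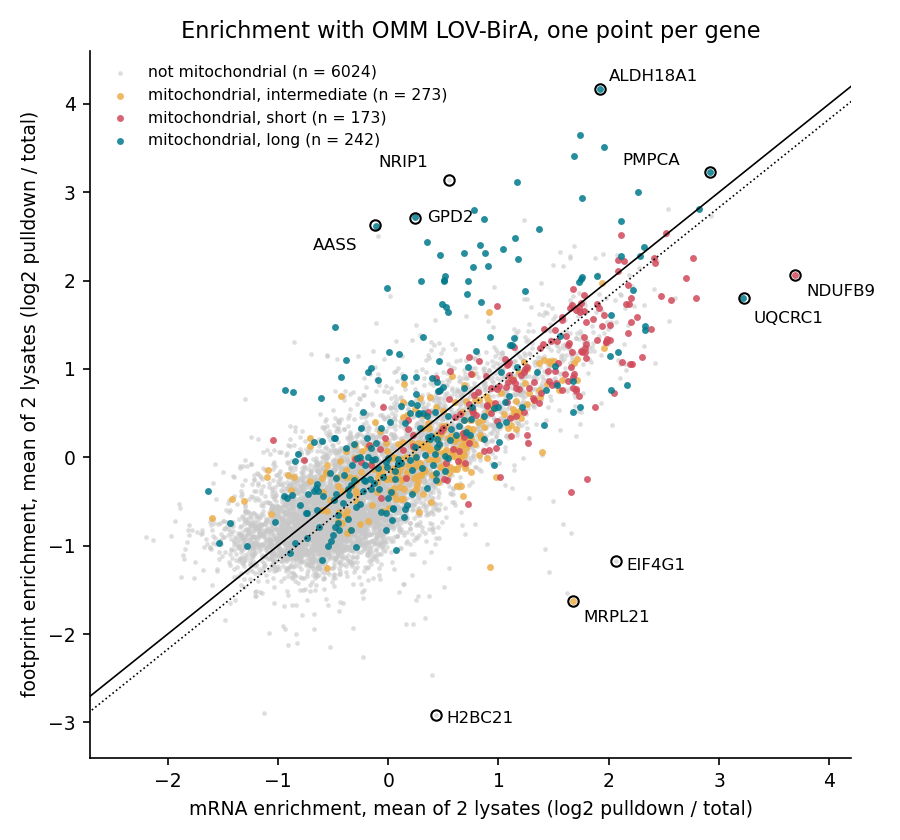
Mean footprint enrichment (vertical axis, log2 pulldown over total input, 2 lysates) against mean mRNA enrichment (horizontal axis, same unit), 1 point per gene, coloured by protein length class for mitochondrial genes. The solid line marks equal enrichment and the dotted line the median difference of −0.17. Long mitochondrial genes lie on both sides of the solid line, some of them far above it, and short ones lie mostly below it. SOD2, for which no length class was available, is not drawn.

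Among the 689 nuclear-encoded mitochondrial genes, the direction of the difference varied with protein length. Of 242 long genes (above 400 aa), 78 had higher footprint enrichment and 57 higher mRNA enrichment. Of 173 short genes (below 200 aa), 9 and 89 did, and of 273 intermediate genes 21 and 126. The shares for long genes, 32.2% and 23.6%, stand beside 11.8% and 29.2% over all genes. The median difference was −0.36 in the short class, −0.32 in the intermediate class and 0.08 in the long class, beside −0.17 over all genes. Over the 4 pairings it ran from −0.39 to −0.27, from −0.36 to −0.25 and from 0.01 to 0.05. With footprint enrichment taken relative to cytosolic LOV-BirA, the long class changed sign to −0.17, beside −0.40 over all genes.

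Median footprint enrichment was 0.92 in the short, 0.05 in the intermediate and 0.31 in the long class, and median mRNA enrichment was 1.37, 0.37 and 0.25. Short genes were thus high in both readouts and higher by mRNA. Among short genes, 65 exceeded 1 in both lysates of both readouts, 3 with footprints only and 47 with mRNA only. For long genes the counts were 29, 33 and 13.

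In finer length bins the median difference was negative below 600 aa and positive above it. Against the median of −0.17 over all genes, the bin of 400 to 600 aa already lay higher. Mitochondrial genes of 100 to 200 aa had a median difference of −0.41, those of 400 to 600 aa −0.09, those of 600 to 800 aa 0.43 and those of 800 aa or more 0.44. Between 600 and 800 aa, 33 of 60 genes had higher footprint enrichment and 5 higher mRNA enrichment. Genes outside mitochondria showed no such course, with medians from −0.23 to −0.08 over the same bins. Across 688 mitochondrial genes, Spearman's rho of the difference with protein length was 0.36, and across 6023 others 0.11.

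**Figure D2:**
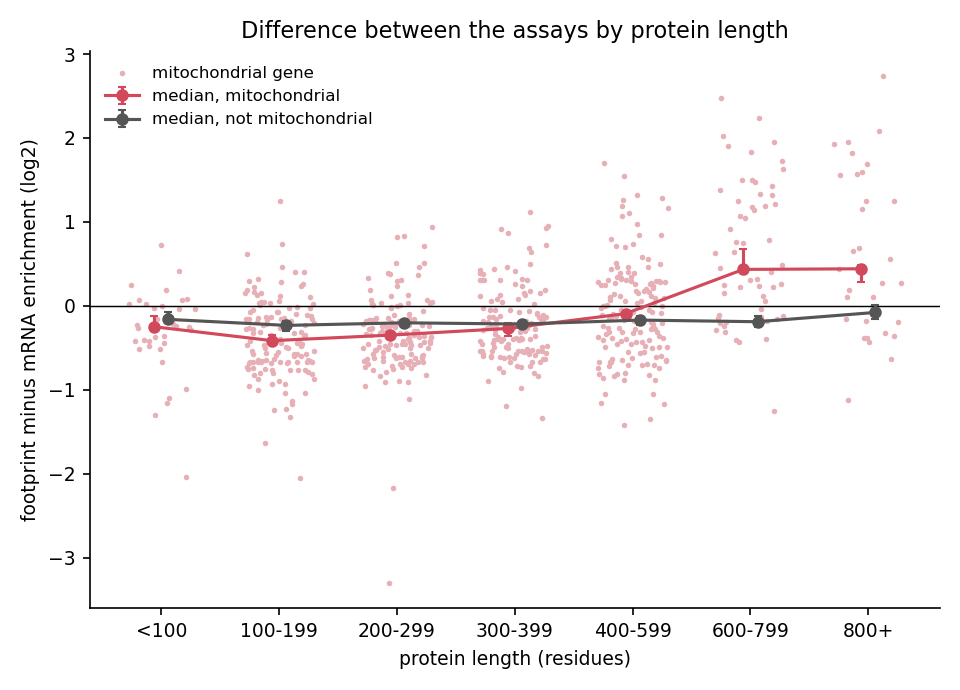
Footprint minus mRNA enrichment (log2) by protein length in residues. Light points are single mitochondrial genes, and joined points are medians of mitochondrial and of other genes, with bars spanning the medians of the 4 lysate pairings. The mitochondrial median moves from −0.41 at 100 to 200 residues to 0.43 at 600 to 800, and the other genes stay between −0.23 and −0.08.

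The 10 mitochondrial genes with the largest differences in favour of footprints all encode proteins above 400 aa. They were chosen among called genes in which every footprint value exceeded every mRNA value. AASS, which encodes the enzyme that opens lysine degradation (chromosome 7, 122064583 to 122144308, GRCh38), led them. Its footprint RPKM, a read density scaled for region length and sequencing depth, went from 5.47 and 9.04 in the total inputs to 37.7 and 49.8 in the pulldowns. In the mRNA libraries it lay between 31.3 and 40.0 RPM in all 4, total inputs and pulldowns alike. Footprints were thus enriched in both lysates, by 2.78 and 2.46, whereas the mRNA values of −0.36 and 0.12 lie on either side of 0. The difference was 2.74, from 2.34 to 3.14 over the 4 pairings, and edgeR's fitted value was 2.68 ± 0.15 (SE, adjusted p = 4.27e-64).

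ALDH18A1, a matrix enzyme of proline synthesis (chromosome 10, 95605941 to 95656711), had the highest footprint enrichment of the 10. Its RPKM rose from 36.5 and 36.6 to 655 and 657, and its mRNA from 99.3 and 106 to 357 and 424 RPM. Enrichment was 4.17 and 4.16 with footprints and 1.85 and 2.00 with mRNA, so that it was high by both measures and differed by 2.24 (fitted 2.24 ± 0.12, edgeR adjusted p = 5.07e-79). GPD2, the inner-membrane glycerol-3-phosphate dehydrogenase, had footprint enrichments of 2.47 and 2.95 and mRNA enrichments of 0.01 and 0.47. Only 73 and 80 footprints lie behind its total inputs, and the SE of its fitted difference was 0.17.

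Among the other genes of this group, AARS2 (mitochondrial alanyl-tRNA synthetase) differed by 2.09, LETM1 (an inner-membrane cation exchanger) by 2.03 and GPAM (an OMM acyltransferase of glycerolipid synthesis) by 1.95. FASTKD1, which acts on mitochondrial RNA, differed by 1.93, GFM2, a factor that recycles mitochondrial ribosomes, by 1.90 and PTCD3, a mitochondrial ribosome protein, by 1.83. IMMT, the core of the complex that shapes cristae, is the one whose mRNA was depleted in both lysates. Its mRNA enrichments were −0.46 and −0.50 beside footprint enrichments of 1.64 and 1.30. For all 10 genes the difference was called with footprints counted over all exons too, at between 1.36 for IMMT and 3.901 for AASS. With cytosolic LOV-BirA the mean footprint enrichment of these genes lay between −0.23 and 0.26, beside a median of 0.26 over all genes.

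In favour of mRNA, the mitochondrial genes with the largest differences were MRPL21, NDUFS7, UQCRB, TIMM8B, NDUFB9, UQCRC1, ACAT1, ECI2, NDUFB2 and NDUFB3. Of these 10, 6 encode subunits of respiratory complexes I or III, which hold 25 and 8 of the 689 mitochondrial genes compared. Among the 6, UQCRC1 was not called over all exons, nor were NDUFS7 and UQCRB relative to cytosolic LOV-BirA. NDUFB9, an accessory subunit of complex I (chromosome 8, 124539101 to 124580648), had the highest mRNA enrichment. Its mRNA rose from 110 and 105 to 1362 and 1405 RPM, an enrichment of 3.64 and 3.75. Its footprint RPKM rose from 345 and 253 to 1267 and 1204, an enrichment of 1.88 and 2.25. The gene was thus strongly enriched in all 4 lysates, with the difference of −1.63 fitted at −1.62 ± 0.12 (edgeR adjusted p = 2.29e-39). NDUFB2, another accessory subunit, had footprint enrichments of 0.68 and 0.77 and mRNA enrichments of 2.00 and 2.09, and NDUFB3 0.43 and 0.71 against 1.84 and 1.91.

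Counting footprints over all exons, which adds UTRs and positions left out of the coding count, moved several values of this group. Positions without unique alignment were masked, and the counted coding stretch can be shorter or longer than the annotated coding length. It was 14.4% of that length for UQCRC1, a core subunit of complex III, and 21.2% for ACAT1, a thiolase. With footprints over all exons the fitted differences of UQCRC1 and ACAT1 went from −1.42 and −1.31 to 0.01 and 0.13. Their edgeR adjusted p were 0.929 and 0.342. MRPL21, a mitochondrial ribosome protein with 24 nt counted, went from −3.33 to −0.65, and NDUFS7, an iron-sulfur subunit of complex I, from −2.14 to −0.67. For UQCRB, whose counted stretch was 113.5% of the annotated coding length, the change was from −2.03 to −0.27. NDUFB2 (58.4% counted) went from −1.32 to −0.39 and NDUFB9 from −1.62 to −0.82. NDUFB3, with 26.5% counted, went only from −1.28 to −1.25. The part of the counted stretch in these changes was not tested.

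MRPL21, NDUFS7, UQCRB (a complex III subunit) and TIMM8B (a small intermembrane-space chaperone) also had fewer footprints in the pulldown with cytosolic LOV-BirA, with enrichments of −1.54 and −3.85 for MRPL21 and of −2.02 and −2.73 for UQCRB. Relative to cytosolic LOV-BirA none of the 4 differences was called, and that of UQCRB was 0.31. Over all genes, a cytosolic footprint enrichment at least 0.5 below the median was seen for 359 of 6713, and these made up 9.14% of the genes called on the mRNA side and 3.29% of those called on the footprint side. Without these genes the counts were 765 and 1771.

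**Figure D3:**
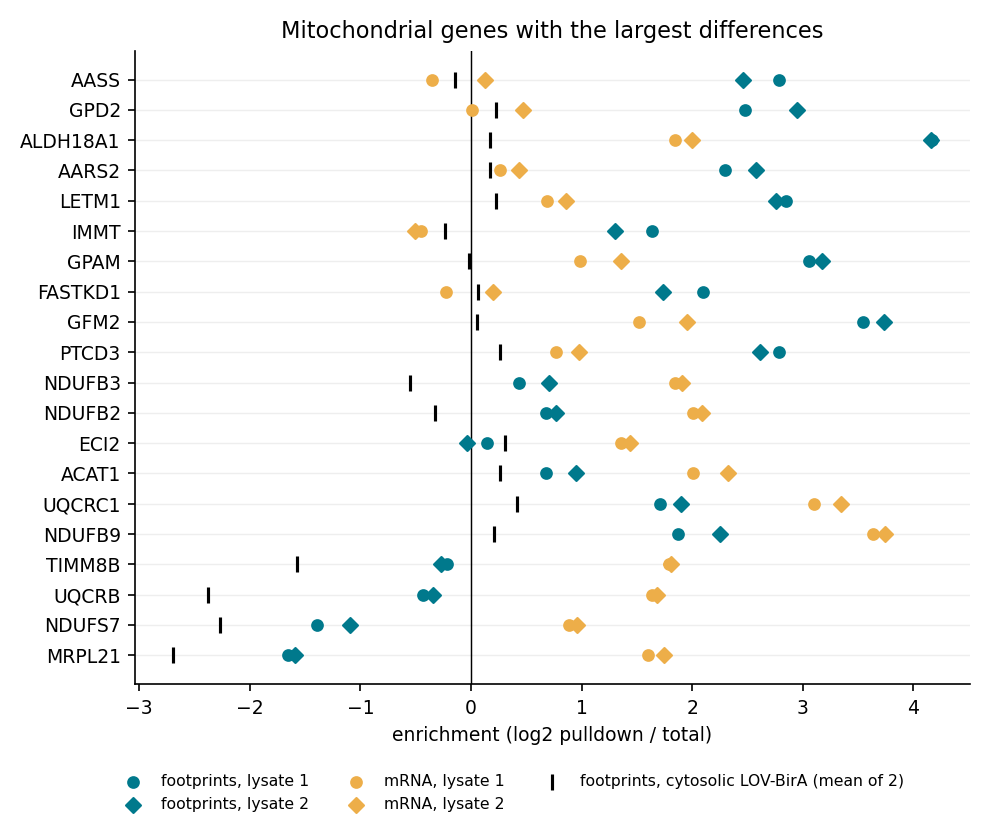
Log2 enrichment in each lysate for the 10 mitochondrial genes with the largest difference in each direction, footprints in blue-green and mRNA in yellow. Black ticks give mean footprint enrichment with cytosolic LOV-BirA. Genes were chosen so that the colours do not overlap in any row. The ticks of MRPL21, NDUFS7, UQCRB and TIMM8B lie well below 0.

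Of the coding sequences that the study uses as examples, the short ones compared differed in favour of mRNA. Among the long ones, ALDH18A1 and PMPCA were called on the footprint side. The other long examples, SUPV3L1 and TBRG4, serve in the paper as proteins targeted after translation. COX7A2, COX5B and UQCRQ, small subunits of complexes IV and III, had footprint enrichments between 1.73 and 2.50 and mRNA enrichments between 2.64 and 2.86. Their fitted differences were −0.99 ± 0.11, −0.66 ± 0.11 and −0.51 ± 0.11, all called by edgeR. PMPCA, a presequence-processing peptidase subunit, was high in both readouts, at 3.30 and 3.16 against 2.82 and 3.02. Its fitted difference of 0.31 ± 0.12 was called at an adjusted p of 0.0212, but was 0.05 over all exons (adjusted p = 0.726). SUPV3L1, a matrix RNA helicase, had −0.27 and −0.18 against −0.11 and 0.02, and TBRG4, which acts on mitochondrial RNA, −0.16 and −0.08 against −0.07 and −0.11. Neither difference passed the test (adjusted p of 0.298 and 0.886).

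Outside mitochondria, the largest differences in favour of footprints belonged to RESF1, NRIP1 and DST. NRIP1, a nuclear corepressor (chromosome 21, 14961235 to 15065936), had footprint enrichments of 3.23 and 3.05 and mRNA enrichments of 0.46 and 0.64. RESF1, which silences retroelements, had 2.59 and 2.42 against −0.27 and 0.09. Neither protein is listed as mitochondrial, and both had coding sequences counted almost in full. DST, a giant cytoskeletal linker, had 1.52 and 1.09 against −0.79 and −0.91, from 85 and 202 footprints in the total inputs. All 3 stayed called over all exons, NRIP1 at 2.36, RESF1 at 2.43 and DST at 2.01.

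The largest differences over all genes were in favour of mRNA, and some of them were much smaller with footprints counted over all exons. EIF4G1, the scaffold of the cap-binding complex, was enriched as mRNA (2.20 and 1.93) and depleted in footprints (−1.61 and −0.75), with 6.61% of its coding sequence counted and 149 and 129 footprints in the total inputs. Its fitted difference was −3.10 ± 0.24, and −3.03 over all exons. GSPT1 and GSPT2, paralogs that encode the release factor eRF3, behaved alike. GSPT1 had footprint enrichments of −1.002 and −0.97 and mRNA enrichments of 0.98 and 0.81, and GSPT2 −0.65 and −1.05 against 1.83 and 1.48. Since reads of near-identical copies can be shared, the value of GSPT2, with 84 and 115 footprints, is uncertain. Without CHX (1 lysate, 1 min of light) mRNA enrichment of EIF4G1 was 0.40 and of GSPT2 −0.03.

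RPL11, a protein of the large ribosomal subunit, went from a fitted difference of −3.23 to −0.31 over all exons. POLR2G, a subunit of RNA polymerase II, went from −2.51 to −0.65, with 16 nt counted, and COPRS, a cofactor of a histone methyltransferase, from −2.46 to −0.22 (adjusted p = 0.151). H2BC21 and H2BC12, histone H2B genes, kept −3.31 and −2.80 over all exons, but had 43 nt and 4 nt of unique coding sequence, and H2BC21 was also depleted with cytosolic LOV-BirA (−1.64 and −4.33). Relative to cytosolic LOV-BirA neither passed the test, at −0.43 (adjusted p = 0.629) and −1.68 (adjusted p = 0.0569). These values rest on very short stretches of near-identical gene copies and are uncertain.

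Calls of opposite sign in the 2 readouts were few. Footprints were enriched and mRNA depleted, each at an adjusted p below 0.05 in the same edgeR fit, for 70 genes, 1.04%, and the reverse held for 177, 2.64%. Among mitochondrial genes these counts were 11 and 15. Of the 11 genes, 10 were long, and of the 15, 11 were of intermediate length.

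Complex III, histones and complex I had the lowest median differences among the gene lists, and ER chaperones the highest. The counts of list members stand beside 11.8% of all genes called on the footprint side and 29.2% on the mRNA side. The 25 complex I subunits had a median of −0.67, with 21 called on the mRNA side and none on the footprint side. The 8 complex III subunits had 7 and none, at a median of −0.81, and the 9 complex IV subunits 5 and none, at −0.52. Complex V, the ATP synthase, had 10 and 2 of 15. Within complexes III and IV the highest values belonged to UQCR10 and COX6C, whose differences of −0.01 and 0.02 did not pass the test.

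Mitochondrial ribosome genes, 68 in number, had a median of −0.43, with 39 called on the mRNA side and 5 on the footprint side. MRPS30, one of the 5, had footprint enrichments of 1.07 and 1.32 and mRNA enrichments of −0.03 and 0.05. The list of mt-tRNA synthetases, enzymes that charge mitochondrial tRNAs, has 15 genes and includes GATB, an amidotransferase subunit that is no synthetase. The list had a median of 0.13, with 5 on the footprint side and 3, GATB among them, on the mRNA side. Over the 4 pairings that median ran from −0.05 to 0.33. IARS2, the isoleucyl enzyme, was highest after AARS2, at 3.57 and 3.46 against 1.80 and 2.12. The TCA cycle had 9 of 13 on the mRNA side and 1, OGDH, on the footprint side (0.92 and 0.89 against 0.18 and 0.32).

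Proteases of mitochondria had a median of 0.13, with 6 of 22 on the footprint side and 3 on the mRNA side. NLN and MIPEP, oligopeptidases, led at differences of 1.502 and 1.21. Fatty acid oxidation had 5 and 6 of 15 and branched-chain amino acid metabolism 4 and 8 of 18. DBT, a core subunit of the branched-chain ketoacid dehydrogenase, had 1.21 and 0.31 against −0.89 and −0.98. Outer-membrane proteins had 9 and 16 of 56, or 16.1% and 28.6%, close to the shares over all genes, and AKAP1, the anchor of protein kinase A that binds mRNA at the OMM, led this list at 2.22 and 2.36 against 0.34 and 0.60. SLC25 carriers, which move metabolites across the inner membrane, had 4 and 11 of 24. For proteins of matrix, inner membrane and intermembrane space the medians were −0.23, −0.31 and −0.16.

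Of the remaining mitochondrial lists, OXPHOS assembly factors had 6 on the footprint side and 11 on the mRNA side of 46, translation factors 3 and 4 of 12, RNA metabolism 10 and 13 of 57, folate and one-carbon enzymes 3 and 3 of 11, chaperones 1 and 7 of 11, and the TOM complex 1 and 3 of 6. LYRM7, a complex III assembly factor, is a short protein on the footprint side, at 0.21 and 0.19 against −0.996 and −1.10. Compartments and pathways come from the study's own sheet, which annotates 715 genes, so these lists were chosen on these samples.

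Cytosolic ribosomal protein genes were enriched in both readouts, with medians of 0.92 for footprints and 1.46 for mRNA. Of 68, 46 were called on the mRNA side and 5 on the footprint side, and 16 had a cytosolic footprint enrichment below −0.5, as did 179 of all genes. RPLP1 and RPS29 differed in favour of footprints, RPLP1 at 2.24 and 2.41 against 1.56 in each mRNA lysate. The list of proteasome genes, which includes the assembly chaperones PSMG1, PSMG3 and PSMG4, had 23 on the mRNA side of 35. Its 1 gene on the footprint side was PSMG4, which is no subunit, and its median was −0.49. Histones had 43 on the mRNA side and 1 on the footprint side of 49, at −0.72, with 12 below −0.5 in the cytosolic pulldown. H2AZ2, a histone variant, was the exception, with a difference of 0.81.

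Solute carriers outside SLC25 had a median of 0.11, with 17 of 80 on the footprint side and 5 on the mRNA side, and SLC7A11, the cystine exchanger, had 0.05 and −0.30 against −1.27 and −1.41. ER chaperones and folding enzymes had 8 and 4 of 24 at a median of 0.24, which ran from −0.02 to 0.46 over the pairings. The 25 integrins, collagens, laminins and cadherins had 2 on the footprint and 4 on the mRNA side at 0.08, from −0.18 to 0.25. Zinc finger genes (6 and 28 of 100), cytosolic translation factors (4 and 22 of 50), cytosolic aminoacyl-tRNA synthetases (2 and 7 of 15) and glycolytic enzymes (0 and 4 of 11) had medians between −0.33 and −0.24. The zinc finger share on the mRNA side, 28%, was near that over all genes, and the share for cytosolic translation factors was 44%.

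**Figure D4:**
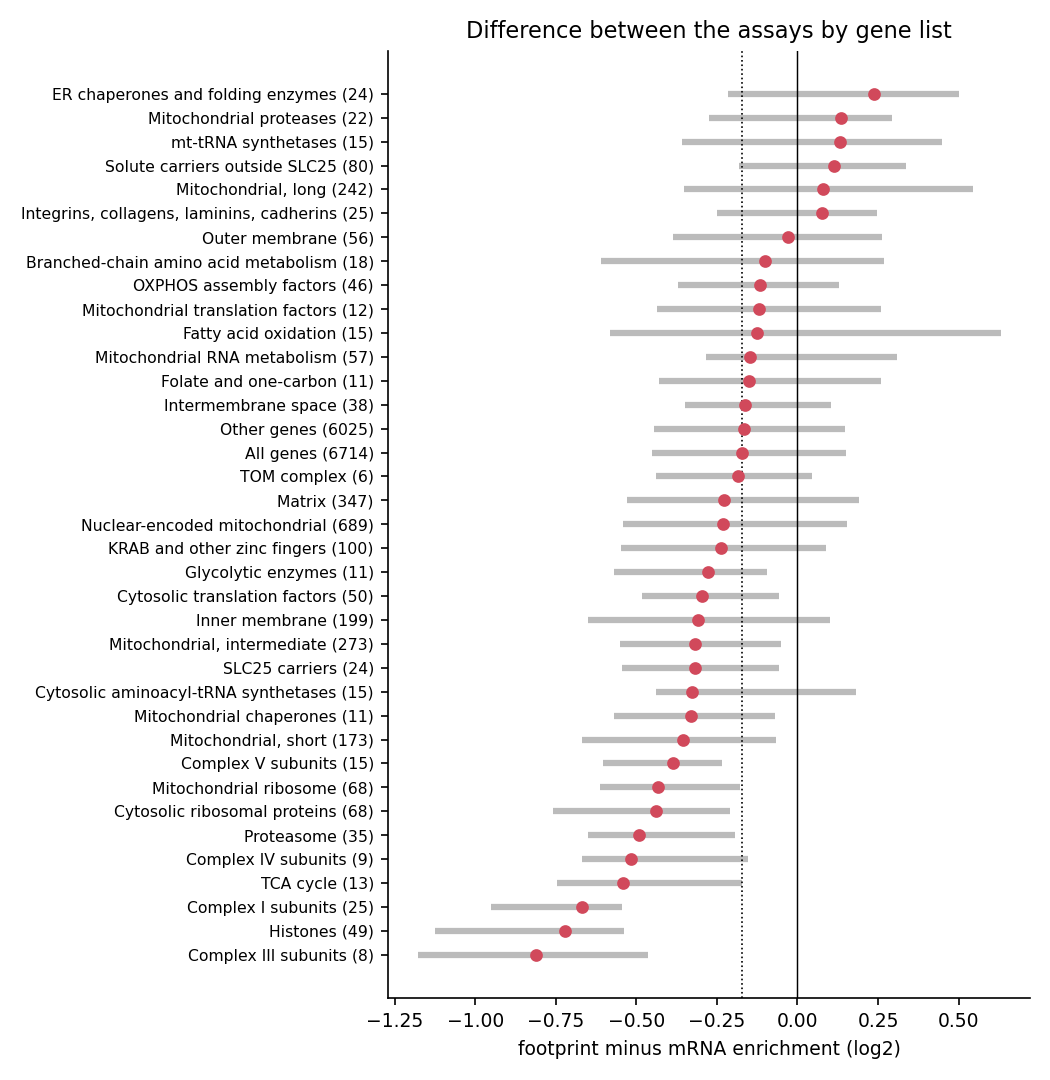
Median footprint minus mRNA enrichment (log2, points) and middle 50% of genes (bars) for each gene list, with the number of genes measured in brackets. The dotted line is the median over all genes, −0.17. Complex III, histones and complex I are lowest, from −0.81 to −0.67, and ER chaperones are highest at 0.24.

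A feature the comparison did not use, the length of the 3′ UTR of the canonical transcript (GENCODE 44), went with the difference in mitochondrial and other genes alike. Among other genes the median difference was −0.43 below 250 nt and 0.17 at 4000 nt or more, and among mitochondrial genes −0.49 and 0.38. Both readouts fell with length, and mRNA enrichment fell further: in other genes its median went from 0.36 to −0.76, and that of footprints from −0.06 to −0.63. Spearman's rho of the difference with 3′ UTR length was 0.39 over 6023 other genes and 0.47 over 688 mitochondrial genes. Genes called on the footprint side had a median 3′ UTR of 2932 nt, those called on the mRNA side 658 nt and all genes 1383 nt.

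Protein length and 3′ UTR length both varied with the difference within mitochondrial genes. Long genes with a 3′ UTR below 1000 nt had a median of −0.19 (n = 123) and those at or above it 0.30 (n = 119), with 21 and 57 genes called on the footprint side. Short genes had −0.50 (n = 120) and −0.16 (n = 53), and other genes −0.35 and −0.05. At the same side of 1000 nt, long mitochondrial genes were thus above short ones. ALDH18A1, with 824 nt, and IMMT, with 335 nt, lie on the footprint side despite a short 3′ UTR.

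**Figure D5:**
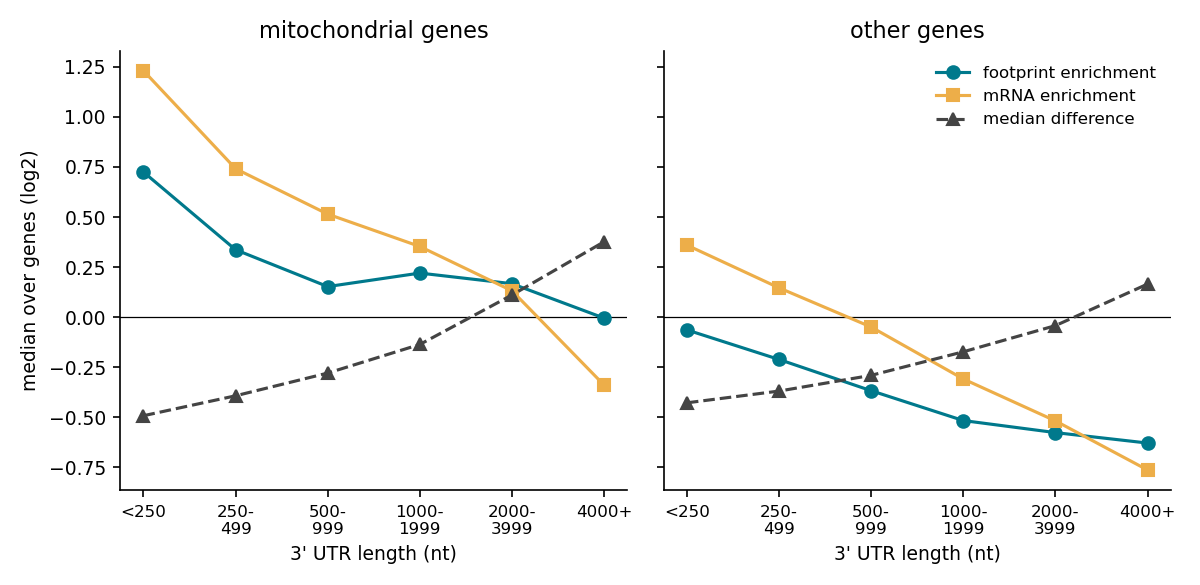
Median footprint enrichment, mRNA enrichment and their difference (log2) by 3′ UTR length in nt, for mitochondrial genes on the left and other genes on the right. In both panels mRNA enrichment starts above footprint enrichment below 250 nt and ends under it at 4000 nt or more, where the difference is 0.38 and 0.17.

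The mRNA enrichments of the named genes in other lines, all with OMM LOV-BirA, are given side by side and share the footprint values, so they are no separate test. AASS mRNA had a mean enrichment of −0.12 in wild type with CHX, 0.09 in the LARP4 null line, 1.23 in the AKAP1 null line (each null line is 1 monoclonal line) and 2.19 in the 1 wild-type lysate without CHX. GPD2 had 0.24, 0.26, 1.98 and 1.19, ALDH18A1 1.92, 1.64, 3.16 and 3.45, and NRIP1 0.55, 0.58, 2.03 and 2.09. In each of these genes the values in AKAP1 null cells and without CHX lay above both wild-type lysates with CHX, and under the mean footprint enrichment. IMMT had −0.48, −0.53, 0.46 and 0.16. NDUFB9 ran the other way in AKAP1 null cells, with 3.70, 3.19, 0.46 and 4.003.

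For whole classes, the median mRNA enrichment of long mitochondrial genes was 0.25 in wild type with CHX, 0.26 in LARP4 null, 0.96 in AKAP1 null and 0.38 without CHX, beside 0.31 for footprints. For short genes it was 1.37, 0.90, 0.36 and 1.14, beside 0.92. Over all genes it was −0.27, −0.07, −0.04 and −0.05, beside −0.41 for footprints. The median over all genes was thus also higher in each other condition than in wild type with CHX. The mt-tRNA synthetase list had 0.70, 0.62, 2.03 and 0.70, beside 1.03 for footprints.

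At the border of the pairing criterion, the genes just inside the footprint side were YWHAB (difference 0.04) and SUCO (0.22), and those just outside ATG3 (0.07) and CEBPG (0.18). On the mRNA side ZBTB24 (−0.04) lay just inside and EXOC3 (−0.26) and TRMT61B (−0.25) just outside. None of these 7 passed the edgeR test, with adjusted p between 0.126 and 0.857.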

How the data were processed

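Ribosome footprints and mRNA reads were analysed as deposited by the authors. For footprints, the authors aligned reads to GRCh38 with TopHat after filtering with Bowtie, kept unique alignments of 27 to 36 nt, and deposited estimated counts (expected counts, each footprint shared out over its middle after trimming 13 nt per side) and RPKM per gene region. RPKM divides by all reads on annotated transcripts. For mRNA, the authors aligned with STAR after rRNA depletion and deposited counts per gene from featureCounts. The deposited score named FPKM was not used. An entry broken over 3 to 7 lines was left out, as were 1079 footprint entries that name several genes, with up to 8.56% of the counts.

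Enrichment used no pseudocount. Counts were rounded and fitted with edgeR 4.0.16 in R 4.3.3 (quasi-likelihood, a term per lysate, a pulldown effect per readout, 2 residual degrees of freedom). Library sizes were the reads behind RPKM and the summed gene counts. SE is the fitted value divided by the root of F. The fit uses 1 spread per gene for both readouts, although footprint lysates differed more (SD 0.40 against 0.14, log2). The study takes pulldown and total input from the same lysate, and their deviations between replicates correlated at 0.583 (footprints) and 0.899 (mRNA). Nothing in the labels says whether replicates are separate cultures, so p-values may reflect technical spread only. DESeq2 1.42.0 and limma 3.58.1 were alternatives. The fit was tested on simulated data. Annotation is GENCODE 44, and the mitochondrial list is the study's. Members and lists were chosen with earlier results of these data known.

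Named genes are the 8 largest called differences in each direction with the same sign in all 4 pairings, the 10 largest in each direction among mitochondrial genes, the 2 extremes of each list, the study's example genes, the tag and anchor genes, and those at the border of the pairing criterion. One gene at that border is not reported here. Tables and figures used Python 3.11.15.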

Additional observations from a re-analysis of the deposited data

Results flagged for a closer look

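For 12 of the genes with the largest called differences, footprints and mRNA moved in opposite directions in every lysate. Passing edgeR's interaction test was a condition for being among these genes. Values are mean log2 footprint enrichment minus mean log2 mRNA enrichment. Footprints were depleted and mRNA enriched for H2BC21 (−3.35), MRPL21 (−3.30), EIF4G1 (−3.24), RPL11 (−3.15), H2BC12 (−2.86), POLR2G (−2.76), GSPT2 (−2.51), COPRS (−2.46), NDUFS7 (−2.17) and UQCRB (−2.05). The reverse held for IMMT (1.95) and DST (2.15). Over all exons the fitted differences of COPRS, RPL11, UQCRB, POLR2G, MRPL21 and NDUFS7 lay between −0.67 and −0.22. Those of H2BC21, H2BC12, EIF4G1 and GSPT2 lay between −3.31 and −2.54, with IMMT at 1.36 and DST at 2.01. Relative to cytosolic LOV-BirA, H2BC21, H2BC12, RPL11, MRPL21, NDUFS7 and UQCRB were not called, and the others were.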

How the results depend on the processing

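The report's values rest on 2 lysates per readout and, for footprints, on a shallow first pulldown, so small differences of genes near 64 footprints were not detectable at this depth. Leaving out 1 lysate moved the footprint-side count (791) to between 427 and 685 and the mRNA-side count (1959) to between 1254 and 1553. The lone lysate is then assumed to vary like the others. Without footprint replicate 2 the former was 427, without mRNA replicate 2 it was 441, and without mRNA replicate 1 the latter was 1254. The medians ran from −0.40 to −0.30 (short), −0.35 to −0.30 (intermediate) and 0.033 to 0.11 (long), and the correlation from 0.73 to 0.78.

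Without the replicate block, which pairs pulldown and total input, 44 and 46 genes passed. DESeq2 gave 527 on the footprint side, limma 1280 on the mRNA side, and a fit of all 24 libraries with CHX 445 and 1192. Short, intermediate and long medians were −0.26, −0.22 and 0.17 with sums over the genes tested in both readouts, −0.23, −0.20 and 0.20 after centring, and −0.25, −0.21 and 0.18 with TMM. Centring raised the gene lists with a positive median from 6 to 10. With the minimum of 64 raised by a factor of 2 the long median was 0.054 and the correlation 0.81. With a minimum of 32 the intermediate and long medians were −0.27 and 0.12 and the correlation 0.74, and with no minimum −0.25, 0.12 and 0.64, with 2471 genes on the footprint side of all pairings. Over all exons the long median was 0.18.

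The next 3 alternatives were chosen after seeing the data. With at least 50% of the coding sequence counted, the long median was 0.25. Leaving out genes low with cytosolic LOV-BirA gave 765 and 1771 genes. Relative to cytosolic LOV-BirA, 314 genes passed on the footprint side, 986 met the pairing criterion there, the medians were −0.51, −0.60 and −0.17 and the correlation was 0.74. Among named genes that passed the test before or after the change, fitted differences changed sign over all exons for UQCRC1 (0.014), ACAT1 (0.13), AIFM1 (0.61), GATB (0.16), YARS2 (0.35), DLD (0.71), SHMT2 (0.047), PMPCB (0.36), HSPD1 (0.11), FKBP10 (−0.31), CHCHD5 (0.018), PABPC1 (−0.47), RARS1 (−0.34), LDHA (−0.28), PKM (−0.31) and ATG3 (−0.35). By the same criterion they changed sign relative to cytosolic LOV-BirA for RPL11 (0.31), UQCRB (0.31), PMPCB (0.17), TOMM22 (0.064), RPS25 (0.23), PABPC1 (−0.21), PSMG1 (0.25), PKM (−0.46) and PMPCA (−0.031). The causes were not tested. Of 143 named genes, 40 stayed on the same side of the threshold under every alternative in which they were tested. A change of direction counted only where the gene passed the test before or after it.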
